A study of Mus musculus with 96 samples.

Results

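Genes named Eif and Eef encode the initiation and elongation factors of translation, together with the kinases, binding proteins and methyltransferases that act on them. They were taken by name alone: every gene of the count files whose symbol is Eif or Eef followed by a digit, then letters or digits, with no hyphen. This gave 71 of 40202 genes, of which 57 carry an Eif name and 14 an Eef name. The rule itself uses no measured value, but it was set with earlier results of these data known. One of the 71, Eif2c5, is an older name of an Argonaute gene and was kept because the rule takes it.

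Expression was measured in single C10 cells, a mouse lung line labelled as alveolar type II epithelium. One group was untreated (control). The other received RO-3306, a small molecule known to block CDK1, the kinase that drives entry into mitosis, at a labelled 10 nM for 36 h. No vehicle and no genetic change is named for either group. Each group had 48 libraries of 1 cell each, made with SMART-seq chemistry and sequenced as single reads of 150 nt.

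A library entered the analysis if it held 50000 counts or more and 1000 genes or more, as did 29 control and 37 RO-3306 cells. Their totals ran from 59979 to 6457215 counts in control and from 295005 to 5321880 in RO-3306. The titles place the cells in lettered sets A to D, whose meaning is not given, with 10, 8, 6 and 5 kept control cells and 10, 10, 11 and 6 kept RO-3306 cells. No culture or passage is named, so each treatment is 1 sample and no difference below has a replicate check or a test. Intervals are exact Poisson 95% intervals and cover counting error only. Of 8 alveolar type II markers, the surfactant genes Sftpa1, Sftpc and Sftpd and the transporter Slc34a2 were at 0 in each kept cell. The list summed to 23.1 (control) and 24.1 CPM (RO-3306), where CPM is a gene's count scaled to a library total of 1e+06. Most of that sum came from Abca3 (9.38 and 5.21 CPM) and Lpcat1 (13.5 and 18.7 CPM). The other 2 were Sftpb (0 and 0.086 CPM) and Lamp3 (0.227 and 0.108 CPM). The 6 epithelial markers summed to 1.78 and 0.978 CPM and the 6 macrophage markers to 32.1 and 15.95 CPM. The 6 mesenchymal markers summed to 5579 and 2523 CPM, with 1329 to 11354 CPM per control cell and 1263 to 13886 CPM per RO-3306 cell. Of these, Col1a1, Col3a1 and Vim were lower in RO-3306. The part that this shift has in the values of the translation factors was not tested.

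Translation begins when eIF2 brings the initiator tRNA to the small ribosomal subunit, which eIF1, eIF1A, eIF3 and eIF5 hold ready for scanning. The mRNA is brought by its cap. The cap-binding protein eIF4E, the scaffold eIF4G and the helicase eIF4A, helped by eIF4B and eIF4H, open its leader, and the 4E-binding proteins keep eIF4E from eIF4G until mTOR phosphorylates them. After the start codon is found, eIF5B joins the large subunit, and eEF1A, its exchange factor eEF1B, eIF5A and eEF2 carry elongation. Phosphorylation of eIF2 by stress-sensing kinases blocks its exchange factor eIF2B and lowers initiation as a whole.

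Group levels are CPM of the counts of all kept cells added together. The log2 ratio compares RO-3306 with control after 1 CPM was added to both. A gene is called higher or lower where the ratio was at least 0.5 in size and had 1 sign in all 4 lettered sets. Of the 71 genes, 59 had a mean of at least 5 CPM over both groups. Another 7 were under it, and 5 (Eef1a2, Eif5a2, Eif4e1b, Eef1akmt4 and Eif2s3y) had no count in any kept cell. With the limit set at 3 cells, a count of 0 allows a detected share of up to 10.3% of cells in control and 8.11% in RO-3306. Eef1a1, Eef2, Eef1d, Eef1g, Eif5a and Eif4ebp1 were counted in every kept cell. The median control cell had a count for 47 of the 71 genes (18 to 62) and the median RO-3306 cell for 53 (25 to 57). Thinned to 639000 reads, the medians were 45 (25 control cells) and 50 (34 RO-3306 cells).

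Of the 59 measured genes, 13 were lower in RO-3306 and 2 were higher. Among all 9374 genes of at least 5 CPM, 8.95% were called lower and 11.1% higher. The share of translation factors called lower was thus 22%, above the background, and that called higher 3.39%, below it. A ratio below 0 was found for 43 of the 59, or 72.9%, against 59% of all genes. Their median log2 ratio was -0.33, against -0.22 for all genes. Scaling by TMM factors raised ratios by 0.217 and by DESeq2 size factors by 0.234. With either of these, 11 genes were lower and 4 higher, and the calls of Eif5a and Eif4a2 were lost while Eif3k and Eif1ad became higher. The shares of all genes were then 6.80% lower with TMM factors and 6.84% with DESeq2 size factors, and 14.8% higher with either. The lower genes were Eif4g1, Eif4enif1, Eif3a, Eif4h, Eif3b, Eif3j2, Eif4g2, Eif4a3, Eif5b, Eif3j1, Eif1ax, Eif5a and Eif4a2, and the higher ones Eif4ebp1 and Eif4ebp2. Each count of calls in a role group below is to be read beside the shares of all genes, 8.95% lower and 11.1% higher.

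**Figure D1:**
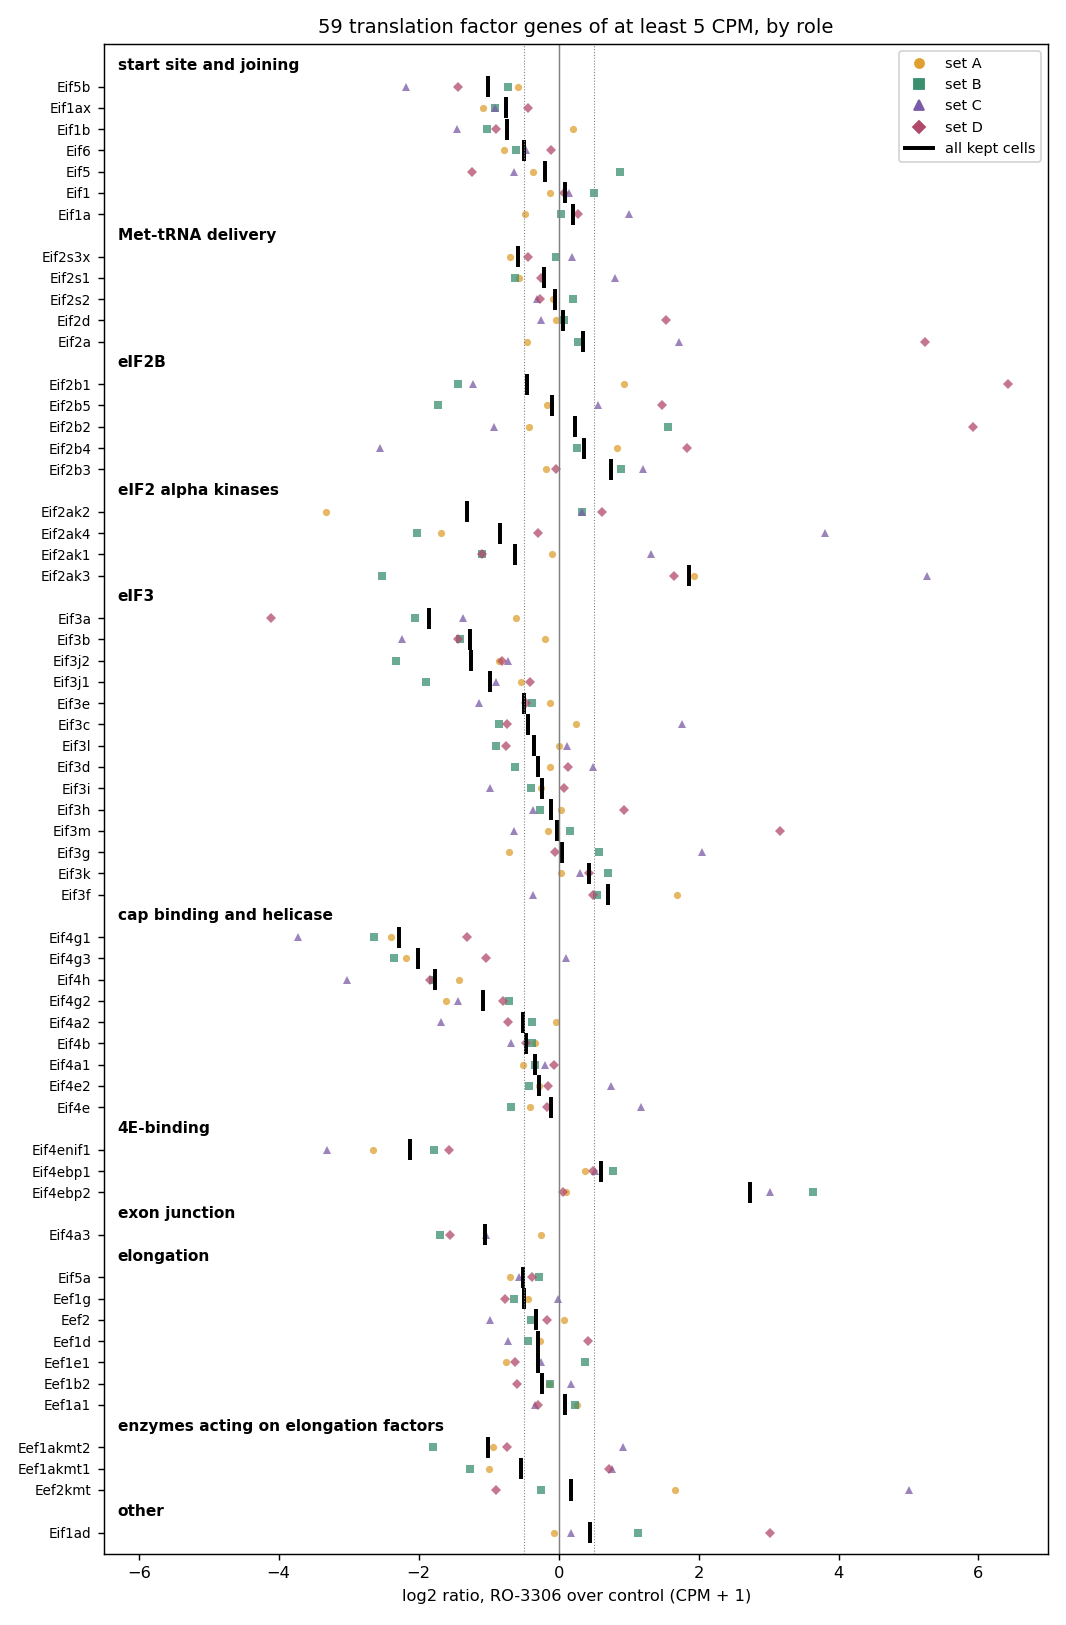
Log2 ratio of RO-3306 over control for the 59 measured genes, grouped by role. Black bars give all kept cells and the 4 marker shapes the lettered sets; dotted lines mark the minimum of 0.5 in size. Eif4g1, Eif4h and Eif4enif1 lie below 0 in each set, and the 4 markers of the eIF2B and eIF2 kinase genes are widely spread.

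Summed over all 71 genes, the level was 22533 CPM in control (22497 to 22569) and 19171 CPM in RO-3306 (19143 to 19199), which gave a log2 ratio of -0.23. It was -0.02 with TMM factors and 0.00074 with DESeq2 size factors, so the sign of the sum is set by the scaling. Per cell the sum ran from 14098 to 27810 CPM with a median of 23385 in control, and from 12091 to 27054 CPM with a median of 19634 in RO-3306. The Eif genes summed to 16389 and 13646 CPM. Their highest RO-3306 cell, at 15941 CPM, lay below the control median of 16512. That holds in CPM only, since the gap is smaller than the shift from TMM or DESeq2 factors. The Eef genes summed to 6144 and 5525 CPM, and their per-cell medians of 5953 and 5512 CPM lay within the other group's range. Much of the total came from few genes: Eef1a1, Eif1, Eif5a, Eif2s2 and Eef1g together made up 38.4% of it in control and 41.99% in RO-3306.

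**Figure D2:**
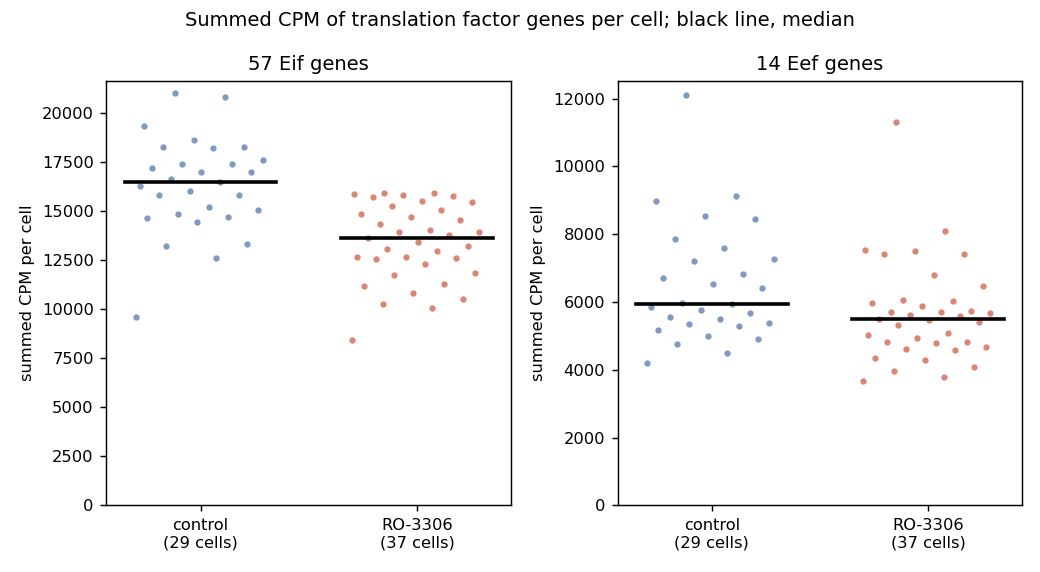
Summed CPM per cell of the 57 Eif genes and the 14 Eef genes, each point 1 kept cell and the black line the median. All RO-3306 cells lie below the control median of 16512 CPM for the Eif genes, while the Eef sums overlap widely. No TMM or DESeq2 factors are applied, and their shift is larger than the gap below that median.

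The cap-binding and helicase genes stood lowest of the large role groups. All 9 measured members had a ratio below 0, as did 59% of all genes of at least 5 CPM. Of the 9, 4 were called lower (Eif4g1, Eif4h, Eif4g2 and Eif4a2), beside 8.95% of all genes. The group summed to 2457 CPM (control) and 1434 CPM (RO-3306). This is a log2 ratio of -0.78, with -0.83, -0.72, -1.11 and -0.74 in sets A to D. With TMM or DESeq2 factors the ratio of 1 of the 9, Eif4e, turned above 0. The mesenchymal markers moved the same way, at -1.14, and their part was not tested. The promoters of these genes are shown first, with those of the other lower genes that share a motif. RefSeq promoters (250 bases before to 50 after an annotated start, build GRCm38.p6) were found for 55 of the 71 genes. The letters CACGTG, an E-box that reads the same on both strands and can be bound by MYC and USF proteins, were in 14 of the 55, or 25.5%. They were in 12.2% of the 7559 genes of at least 5 CPM with a promoter and in 7.15% of all 32851 promoters. These shares are not like for like, since the last is per promoter and the 14 include genes under 5 CPM. Of the 11 lower genes with a promoter, 4 held it, each printed here as a window of 30 bases on the gene's strand with the motif in capitals.
Eif4g1: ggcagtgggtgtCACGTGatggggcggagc
Eif4h: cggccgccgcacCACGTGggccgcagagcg
Eif5a: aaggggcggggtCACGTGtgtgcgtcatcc
Eif3a: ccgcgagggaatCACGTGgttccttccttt
The windows lie at chr16:20672661-20672690 (+), chr5:134639488-134639517 (-), chr11:69921443-69921472 (-) and chr19:60790654-60790683 (-). The first base of the motif is at -54 in Eif4g1, -96 in Eif4h and -74 from 1 of the Eif5a starts, and at 23 in Eif3a, where positions count from 1 at the start and are negative before it. The motif was also in Eif4e, Eif3k, Eif3f, Eif1b, Eef2 and Eif4a1, none of which was called lower. Eef1aknmt, Eif5a2, Eef2k and Eef1akmt4 held it too and were not among the measured genes. A match says only that these letters are in the window.

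Eif4g1 (chromosome 16, 20491446 to 20511633 on GRCm39) encodes the main scaffold of the cap-binding complex. Its level was 96.7 CPM in control (94.3 to 99.1) and 19.1 CPM in RO-3306 (18.2 to 20.02). Control cells ran from 0 to 681 CPM with a median of 67.7, and RO-3306 cells from 0 to 369 CPM with a median of 5.54. The groups overlapped, but only 4 of 37 RO-3306 cells lay above the control median. The log2 ratio was -2.28 overall and -2.40, -2.64, -3.72 and -1.30 in sets A to D. Leaving out any single cell kept it between -2.59 and -2.09, and it was called lower under all 16 alternatives that keep it. A count was present in 24 of 29 and 26 of 37 cells, and in 19 of 25 and 22 of 34 after thinning to 639000 reads. Thinning matched the reads but not the number of genes per cell, whose median was 5177 in control and 6951 in RO-3306.

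Eif4h (chromosome 5, 134648726 to 134668263) encodes a cofactor that stimulates the eIF4A helicase. It was lower in RO-3306, at 111 CPM (109 to 113) against 379 CPM (374 to 383). Control cells ran from 127 to 1331 CPM with a median of 279, against 0 to 592 CPM with a median of 93.5 in RO-3306. All 29 control cells lay above the RO-3306 median, and 3 of 37 RO-3306 cells above the control median. The log2 ratio was -1.76 overall and -1.42, -1.79, -3.02 and -1.84 in the sets, and the call held under all 16 alternatives. Eif4b, the related cofactor, was at 277 and 199.5 CPM, a ratio of -0.47 that did not reach the minimum.

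Eif4g2 (chromosome 7, 110667192 to 110682237), a relative of Eif4g1 that lacks the cap-binding protein's contact, had 730.0 CPM in control (723 to 737) and 344 CPM in RO-3306 (340 to 347). Control cells ran from 0 to 1687 CPM with a median of 606, and RO-3306 cells from 20.3 to 676 CPM with a median of 263. Only 2 of 37 RO-3306 cells were above the control median. The log2 ratio of -1.08 was negative in each set (-1.61, -0.70, -1.43 and -0.80). Its longest mRNA is 7995 nt long, and after subtraction of the median of genes of like length the ratio was -0.23, below the minimum size. That value depends on the length taken, and which transcript the cells used was not tested.

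Eif4g3, the other Eif4g1 paralog, had 49.3 and 11.4 CPM and a ratio of -2.01, but was at 0.11 in set C. Its median cell was at 0.43 CPM (control) and 1.94 CPM (RO-3306). The control cell with the most counts of it, B5, held 28.9% of the control counts. Both helicase genes were near the minimum. Eif4a2 was called lower at -0.50 (263 and 185 CPM), a call lost under 9 of 16 alternatives and without any 1 of 29 cells (-0.35 without control cell C7), and Eif4a1 was at -0.34 (150 and 118 CPM). The cap-binding gene Eif4e had 226 CPM in control (223 to 230) and 209 CPM in RO-3306 (206 to 212). Its ratio of -0.11 and that of Eif4e2 (-0.28), a cap-binding homologue tied to repression, were smaller in size than the minimum and had mixed signs over the sets. Eif4e3 had 2 and 1 counts in all.

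**Figure D3:**
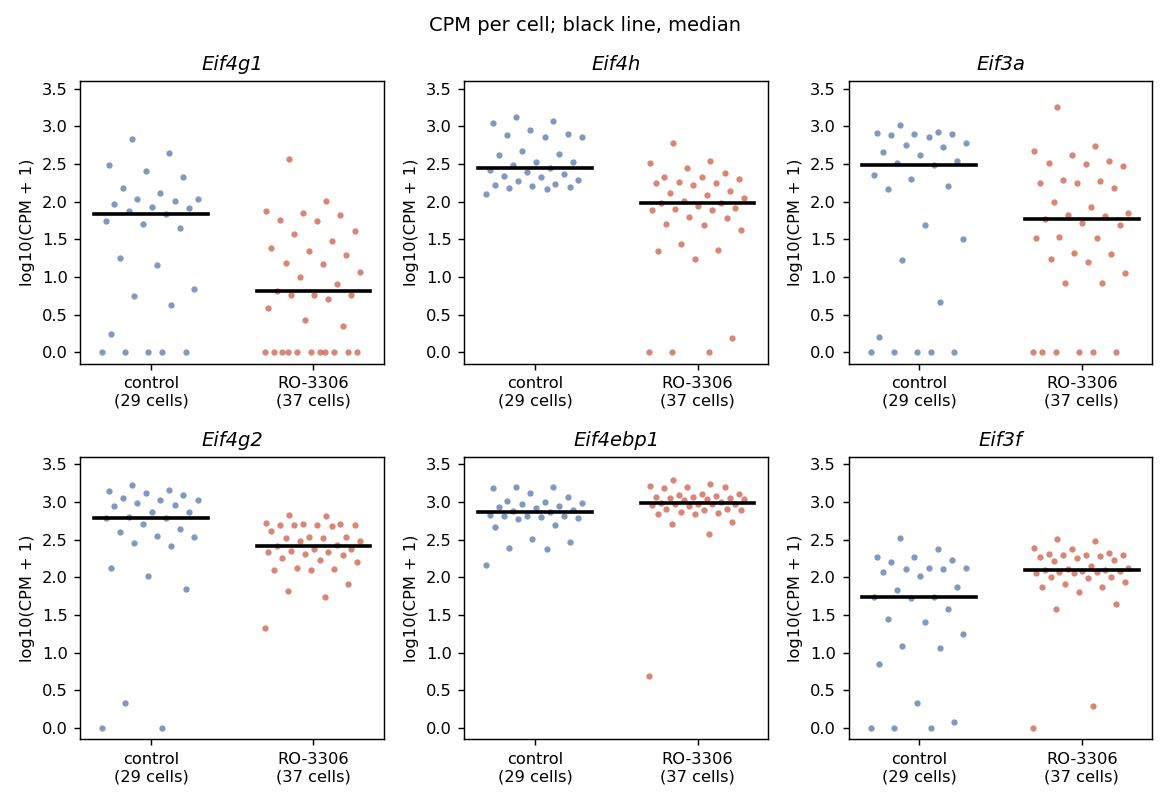
CPM of 6 genes in each kept cell on a log10(CPM + 1) scale, with the median as a black line (29 control and 37 RO-3306 cells). Eif4g1, Eif4h, Eif3a and Eif4g2 have lower medians in RO-3306, and Eif4ebp1 and Eif3f higher ones; cells of both groups overlap for each gene.

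Among genes of the 4E-binding proteins, Eif4ebp1 (chromosome 8, 27750355 to 27765684) was the abundant one and was higher in RO-3306. It encodes the mTOR-controlled repressor that holds eIF4E. Its level was 704 CPM in control (697 to 710) and 1067 CPM in RO-3306 (1060 to 1074). Control cells ran from 147 to 1566 CPM with a median of 728, and RO-3306 cells from 3.88 to 1944 CPM with a median of 975. Of the RO-3306 cells, 30 of 37 were above the control median. The log2 ratio was 0.60 overall and 0.37, 0.78, 0.52 and 0.50 in the sets, and no single cell ended the call. Averaging cells equally gave 0.39, which ended it. Against genes of like length the ratio was 0.52, and the call rule was not met either.

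Eif4ebp2 was called higher at 2.74 but was barely expressed, at 0.9995 CPM (control) and 12.3 CPM (RO-3306). A count was found in 4 of 29 and 8 of 37 cells. Control cell B2 held 81.8% of the control counts, and without it the ratio was 3.48. Leaving out RO-3306 cell A6, B9 or D9 ended the call, and so did thinning and leaving out set B, where the ratio became 1.87. Its size depends on the value added before the logarithm, with 3.497 at 0.1 CPM and 1.53 at 5 CPM. Eif4ebp3 had 5.51 and 3.04 CPM, below the minimum over both groups. Eif4enif1, which encodes the transporter of eIF4E that represses bound mRNAs, was lower at -2.12 (75.7 CPM in control, 73.6 to 77.8, and 16.6 CPM in RO-3306, 15.8 to 17.4). It was counted in 15 of 29 and 18 of 37 cells, so the median cell had 7.28 and 0 CPM. Without RO-3306 cell D6, which held 38.9% of the group's counts, the ratio was -2.72, and leaving out control cell C2 or D7 ended the call.

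Ratios between genes of the same cells need no scaling between groups. The pairs were chosen with the values above known, and they share reads with them. Summed counts of Eif4ebp1 were 7.28 times those of Eif4g1 in control and 55.8 times in RO-3306, and the ratio was larger in RO-3306 in every set. Its cell median was 9.15 in the 24 control cells with both genes and 55.3 in 26 RO-3306 cells. Over Eif4e, Eif4ebp1 stood at 3.11 and 5.10, with the opposite change in set C. Eif4h over Eif4b was 1.37 in control and 0.56 in RO-3306, lower in each set.

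The 14 genes of eIF3, the large scaffold that binds the small subunit, were not uniform. All were measured, and 4 were lower (Eif3a, Eif3b, Eif3j1 and Eif3j2), none was higher, and 10 were neither. Of all genes of at least 5 CPM, 8.95% were lower and 11.1% higher. Together they summed to 4437 (control) and 3529 CPM (RO-3306). Eif3a (chromosome 19, 60749554 to 60779131), the largest core subunit, had 379 CPM (375 to 384) and 104 CPM (102 to 106). Control cells ran from 0 to 1026 CPM with a median of 309, and RO-3306 cells from 0 to 1812 CPM with a median of 57.7. The highest cell of all was in RO-3306, and 7 of 37 RO-3306 cells were above the control median. The log2 ratio was -1.86, and -0.61, -2.05, -1.37 and -4.11 in the sets. With equal weight per cell it was -1.06 and after thinning -1.22, and neither kept the call.

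Eif3b, the other core scaffold subunit, was at 247 CPM in control (243 to 251) and 103 CPM in RO-3306 (101 to 105), with per-cell medians of 183 and 55.2 CPM. Its ratio was -1.26 overall and -0.20 in set A, and leaving out control cell A5 or A11 or RO-3306 cell A5 ended the call. So did thinning (-1.17). The loosely bound subunit eIF3j has a pair of gene copies here. Eif3j2 was at 111 and 45.8 CPM (-1.26) and Eif3j1 at 148 and 74.1 CPM (-0.98). Of the kept libraries with a count of each, 60.4% and 63.2% had a fractional one. Part of the reads of Eif3j2 and Eif3j1 thus also fit other places, and whether they were shared between the pair was not tested. Without control cell D9, or after thinning, neither was called.

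Eif3f and Eif3k had the highest ratios of the complex. Eif3f (chromosome 7, 108533622 to 108541149), a subunit with an MPN domain, was at 81.4 CPM in control (79.2 to 83.6) and 133 CPM in RO-3306 (130 to 135). Its median cell was at 54.1 CPM (0 to 333) in control and 123 CPM (0 to 324) in RO-3306, and 33 of 37 RO-3306 cells were above the control median. The ratio was 0.70 overall and 1.69, 0.55, -0.36 and 0.50 in the sets, and set C kept it from the call. Eif3k was at 205 and 276 CPM (0.43), with all 4 sets above 0. The most abundant subunit, Eif3h, was at 787 CPM (780 to 793) and 728 CPM (722 to 733), a ratio of -0.11 with mixed signs. Per kb of the longest mRNA, levels in control ran from 27.3 CPM for Eif3j1 to 607 CPM for Eif3h. Eif3a, Eif3b and Eif3c were at 74.0, 83.9 and 71.3 CPM per kb. The counts cover whole gene spans with introns, so these levels are rough. Counts of Eif3a, Eif3b and Eif3c, the long subunits, were 0.81 times those of Eif3f, Eif3h and Eif3k in control and 0.34 times in RO-3306. The change was negative in each set (log2 -0.37, -1.43, -0.72 and -2.72). These genes were picked with their ratios known, so the direction adds no support. Medians of genes of like length were -0.85, -0.25 and -0.32 for Eif3a, Eif3b and Eif3c. They were -0.17, 0.19 and 0.26 for Eif3f, Eif3h and Eif3k, and the part of length was not tested.

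**Figure D4:**
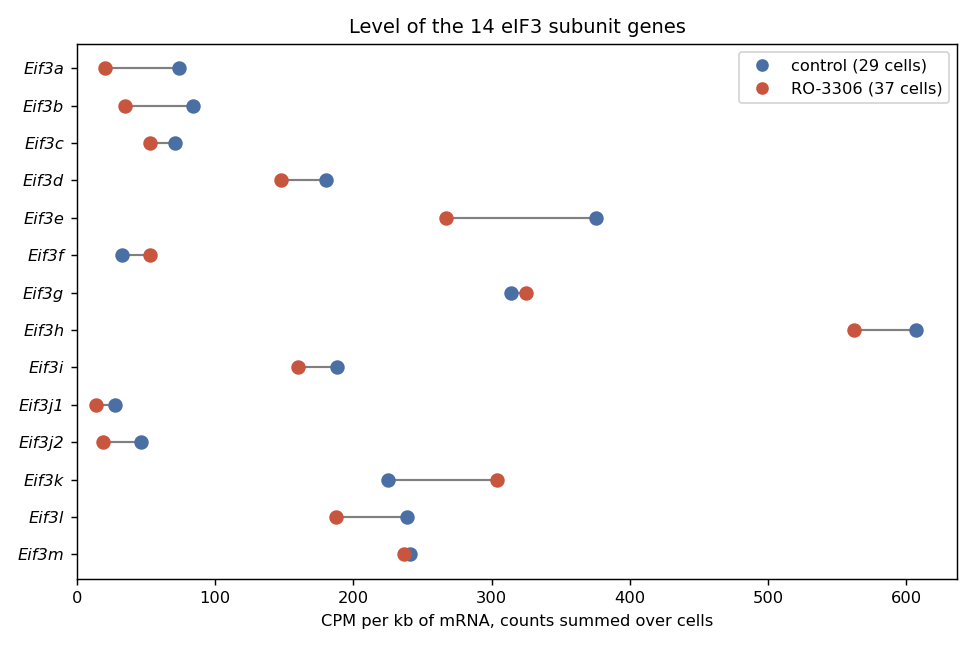
CPM per kb of mRNA of the 14 eIF3 subunit genes in control and RO-3306, from counts summed over kept cells; a grey line joins the 2 groups. Length is that of the longest transcript, and counts cover whole gene spans. Eif3a and Eif3b move from 74.0 and 83.9 to 20.3 and 34.8, while Eif3f and Eif3k move up.

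Among factors of start-site choice and subunit joining, Eif5b and Eif1ax were lower and 5 genes were neither. Eif1 (chromosome 11, 100210775 to 100212925), which guards start-codon choice, was the second most abundant member of all, at 1842 CPM in control (1832 to 1852) and 1954 CPM in RO-3306 (1945 to 1963). Cells ran from 638 to 3067 CPM with a median of 1819 in control, and from 0 to 3577 CPM with a median of 1950 in RO-3306. The groups lay on top of each other, with a ratio of 0.09. Its counts were fractional in every kept library with a count of it, so reads with other sites of the same sequence are part of this value. Its paralog Eif1b was at 77.0 and 45.8 CPM, a ratio of -0.74 with a positive value in set A. Eif5b, the subunit-joining GTPase, was at 195 and 96.7 CPM (-1.002), and it was not called without control cell A3 or with equal weight per cell (-0.61). Eif1ax was at 451 and 268 CPM (-0.75), with -1.08, -0.91, -0.91 and -0.44 in the sets, and was not called without control cell D8 or with equal weight per cell (-0.79). By their longest transcripts both have long mRNAs (7797 and 5172 nt), and against genes of like length their ratios were -0.15 and 0.10. Eif6, which keeps free large subunits apart, was at 666 and 474 CPM, just short of the minimum at -0.49 with all sets below 0.

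Delivery of the initiator tRNA showed no call. Eif2s2, the beta subunit of eIF2, was at 1314 CPM (1305 to 1322) and 1273 CPM (1266 to 1281), a ratio of -0.04, with cell medians of 1322 and 1219 CPM; TMM factors moved it to 0.17. Eif2s1 and Eif2s3x, the alpha and gamma subunits, were at -0.21 and -0.58 with mixed signs over the sets. The Y-linked copy of the gamma subunit had no count. Eif2a, an alternative initiator tRNA factor outside the eIF2 complex, was at 34.2 and 43.8 CPM (0.35), and Eif2d at 71.5 and 74.6 CPM (0.06).

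The 5 genes of eIF2B, the exchange factor that recharges eIF2, were all neither higher nor lower, and their sum was 418 and 431 CPM. Eif2b3 had the highest ratio, 0.75 (68.0 and 115 CPM), but was slightly negative in sets A and D and came to 0.20 with equal weight per cell. Eif2b1, the most abundant of the 5, was at 180.3 and 132 CPM (-0.45), and at 0.42 without set B. Eif2b2 and Eif2b4 were at 0.23 and 0.36. Eif2b2 turned to -0.10 with equal weight per cell, -0.33 after thinning and -0.23 without set B. Without set D Eif2b4 came to -0.27, and without set C to 1.02. Detection was sparse in control, where Eif2b2 was counted in 9 of 29 cells and Eif2b4 in 13, and in RO-3306 they were counted in 24 and 20 of 37.

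No eIF2 kinase was called. The most abundant, Eif2ak4 (the amino acid sensor GCN2), had 43.9 and 24.2 CPM in 11 of 29 and 13 of 37 cells. Its ratio of -0.83 became -0.13 without set A and -1.73 without set C, and -1.66 without RO-3306 cell C10. Eif2ak2 (PKR, the sensor of double-stranded RNA) was at -1.31, and -0.12 without control cell A11, which held 59.5% of the control counts. Counts of Eif2ak2 were found in 23 of 29 and 32 of 37 cells, but the median cell had 0.87 and 1.07 CPM. Eif2ak3 (PERK, the sensor of unfolded protein in the endoplasmic reticulum) was at 3.15 and 14.1 CPM in 3 of 29 and 7 of 37 cells, and its ratio of 1.86 became -0.37 without set C. Eif2ak1, the haem-regulated kinase, was at -0.62 with mixed signs. The 4 ratios thus rest on the counts of few cells.

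Eif4a3, the helicase that anchors the exon junction complex, is a member by name only and does not act in scanning. It was lower, at 303 CPM in control (299 to 307) and 146 CPM in RO-3306 (143 to 148). Its median cell was at 203 CPM (0 to 1235) in control and 143 CPM (0 to 400) in RO-3306, and 8 of 37 RO-3306 cells were above the control median. The ratio was -1.05, and -0.25, -1.69, -1.04 and -1.55 in the sets; without control cell A3 it was -0.97 with a changed sign in set A, which ended the call, as did equal weight per cell (-1.09). Its longest mRNA is 1509 nt long, and against genes of like length the ratio was -1.19.

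Of the 9 genes placed in the elongation group, which takes Eef1e1 by its name only, 7 were measured and 1 was called. Eef1a1 (chromosome 9, 78385735 to 78389006), which carries aminoacyl-tRNA to the ribosome, was the most abundant member, at 2609 CPM in control (2596 to 2621) and 2778 CPM in RO-3306 (2767 to 2788). Control cells ran from 1381 to 8692 CPM with a median of 2589, and RO-3306 cells from 1006 to 4736 CPM with a median of 2759. The ratio of 0.09 was positive in sets A and B and negative in C and D. Its paralog Eef1a2 had no count. Eef2, the translocase, was at 766 and 609 CPM (-0.33), and the eEF1B subunit genes Eef1b2, Eef1d and Eef1g at -0.23, -0.30 and -0.50. Eef1g was below 0 in all sets and missed the minimum by less than the rounding. Eif5a, which relieves stalled ribosomes, was the only gene of the group that was called, at 1799 CPM (1788 to 1809) and 1265 CPM (1258 to 1273). Cells ran from 919 to 3877 CPM with a median of 1816 in control, and from 122 to 2891 CPM with a median of 1314 in RO-3306. The ratio was -0.51 and lay below 0 in every set, but 5 of 16 alternatives ended the call, both scaling factors among them, and so did leaving out any 1 of 20 cells (-0.46 without control cell A11).

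Enzymes that modify elongation factors were scarce. Of 7 genes, 3 were measured and none was called. Eef1akmt1 was at 96.6 and 66.4 CPM (-0.53), Eef1akmt2 at -1.01 and Eef2kmt at 0.18, each with mixed signs over the sets; without control cell B1, which held 49.5% of its control counts, Eef2kmt was at 1.08. Eef2k, the kinase that inhibits eEF2, was counted in 1 control cell and 2 RO-3306 cells. The span of Eef1akmt4 lies wholly inside that of another gene in the file. Outside the roles above, Eif1ad was at 265 and 361 CPM (0.45), with counts in 20 of 29 and 36 of 37 cells, and Eif2c5 had 101 counts, all in RO-3306 cell C3.

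Many mRNAs of elongation factors begin with a C and a run of pyrimidines, the terminal oligopyrimidine motif through which mTOR controls their translation. Of the 9 members listed for it (Eef1a1, Eef1b2, Eef1d, Eef1g, Eef2, Eif3e, Eif3f, Eif3h and Eif4b), none was called. With 8.95% of all genes called lower and 11.1% higher, no call among 9 genes is near the background. Ratios were below 0 in 7 and above 0 in 2. Eef1g (-0.496) and Eif3e (-0.491) just missed the minimum, with all 4 sets below 0. The 9 had a median ratio of -0.30, against -0.34 for the other 50 measured members, and summed to 7381 (control) and 6624 CPM (RO-3306). A C followed by 9 or more pyrimidines, on the gene's strand and starting within 10 bases of the RefSeq start, was found in 2 of the 5 listed genes with a promoter (Eef1a1 and Eif3f). It was in 12.7% of the 55 members, 4.96% of genes of at least 5 CPM and 3.66% of all promoters. The last share is per promoter, and that of the members includes Eif2c5 and Eif2s3y, which were not among the measured genes. The window of Eif3f, the listed gene with the highest ratio, is shown with its run of 15 in capitals (chr7:108934405-108934434, +, GRCm38.p6).
Eif3f: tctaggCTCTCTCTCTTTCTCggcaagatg

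The ratio of a gene moved with the length of its mRNA, taken as the longest protein-coding GENCODE M21 transcript of its symbol. Which transcript the cells used was not tested. Over the 59 members Spearman's correlation of length and ratio was -0.265, and over 9223 genes of at least 5 CPM it was -0.360. Genes are not independent points and share the same libraries. Within sets it was -0.27, -0.28, -0.00 and -0.31 over the members, so set C did not show it. Of the 23 members of at least 3000 nt, 7 were lower and their median was -0.58, against -0.61 for all genes of that length, of which 11.5% were lower. Of the 26 members of 1500 to 3000 nt, 5 were lower, with a median of -0.29 against -0.06 for all such genes, of which 7.48% were lower. Of the 10 shorter ones, 1 was lower, with a median of -0.17 against 0.23, where 4.14% of all genes were lower. These class limits were chosen after the data were seen. Against genes of like length the median of the members was -0.13. Under it 6 of the 13 genes remained lower (Eif4g1, Eif4h, Eif4enif1, Eif3j2, Eif4a3 and Eif5a), and Eif3a (-1.01), Eif3b (-1.01), Eif4g2, Eif5b, Eif3j1, Eif1ax and Eif4a2 did not meet the call rule. In their place Eif6, Eif3e, Eef1g and Eif4g3 met it, for 10 lower genes in all, where 8.53% of all genes met it.

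**Figure D5:**
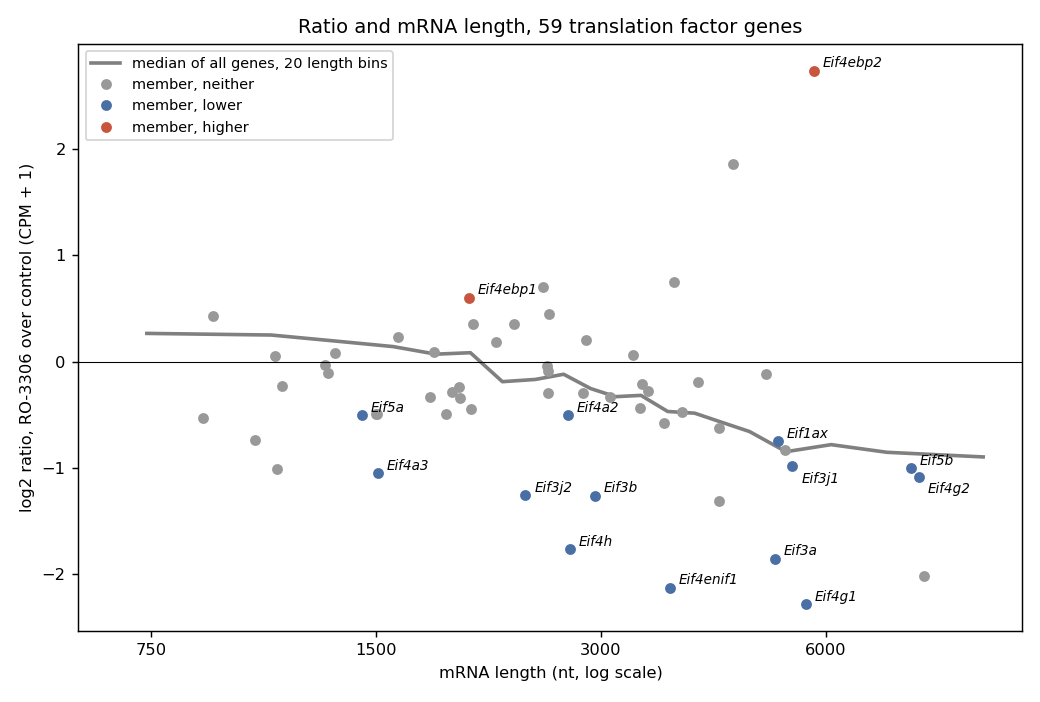
Log2 ratio of the 59 measured genes against mRNA length on a log axis. The grey line joins the medians of all genes in 20 bins of length, from 0.26 in the shortest to -0.90 in the longest; Eif4enif1, Eif4h and Eif4g1 lie farthest below it, by 1.66, 1.64 and 1.43.

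Reads that fit several places were split by the authors into fractions, and translation factors have many processed copies in the genome. Shares here are of the kept libraries with a count of the gene. Fractional counts were present in more than 10% of these for 56 of the 59 measured genes and in more than 50% for 22 of them. They were found in 100% of such libraries for Eif1, 95.5% for Eef1a1 and 83.3% for Eif5a. The shares were 24% for Eif4g1, 49.2% for Eif4h and 9.62% for Eif3b. The levels of Eif1, Eef1a1 and Eif5a include reads that could come from copies. Of the 13 lower genes, Eif3b was the only one left when genes above 10% were set aside.

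Other genes of the pathway, from a list of 43, gave 41 measured genes with 5 lower, 3 higher and a median of -0.38, beside 8.95% lower and 11.1% higher of all genes. Against genes of like length that median was -0.02. The poly(A)-binding and cap-partner genes showed the largest drop of summed level, from 2237 to 1291 CPM. Ddx3x, a helicase that assists scanning, was lower (260.4 and 41.8 CPM, -2.61), as were Pabpc4 (164 and 37.7 CPM, -2.09) and Pabpc1 (1545 and 980 CPM, -0.66), the proteins that join the poly(A) tail to eIF4G. Paip1, their activator, was higher from a low level (3.86 and 10.1 CPM, 1.19). Abce1, which recycles ribosomes, was lower (124 and 60.1 CPM, -1.03), and Rptor of mTOR complex 1 was lower at 15.3 and 5.397 CPM (-1.35). Higher were Eefsec, the selenocysteine elongation factor (5.60 and 18.5 CPM, 1.56), and the mitochondrial exchange factor Tsfm (49.4 CPM in control, 0.85). None of the 7 measured hypusine and diphthamide enzymes, which modify eIF5A and eEF2, was called, and their sum was 238 and 236 CPM.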

How the data were processed

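Counts per gene were deposited for 96 single-cell libraries. The authors made these expected counts with featureCounts 2.0.3 on the RefSeq annotation of GRCm39, per the file headers: over whole gene spans, introns included, with reads of several places split into fractions and no strand option. The submitters' processing notes also name FastQC and STAR. Trimming and filters are not given in the sources used here. Without molecular identifiers, PCR copies of 1 molecule are counted separately.

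Members and gene lists were chosen with earlier results of these data known. Libraries under 50000 counts or 1000 genes were set aside. Counts were summed per group (66034079 in control, 92828839 in RO-3306) and scaled to CPM. For intervals, thinning and scaling factors, fractional counts were rounded; a count was fractional when over 1e-06 from a whole number. No 2 kept libraries held identical values. The highest mitochondrial share of a kept cell was 56.0%.

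Genes described were, by rule, the most abundant member of each role, the 8 highest and 8 lowest ratios among members of at least 20 CPM counted in at least 25% of cells of the higher group, and paralogs of these. All called members and other genes were added after their values were seen.

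Alternatives were TMM factors (edgeR 4.0.16) and DESeq2 1.42.0 size factors in R 4.3.3, other totals, pseudocounts, minimums and cell filters, equal weight per cell, thinning, single sets left out, subtraction of genes of like mRNA length, and removal of genes of fractional counts. Leaving out each cell was added after the data were seen. Tools were Python 3.11.15, scipy 1.17.1, pandas 2.3.3, numpy 2.4.6 and matplotlib 3.10.9. The steps were tested on simulated data. GENCODE M21 supplied lengths, each that of the longest protein-coding transcript of a symbol, or else its longest transcript. RefSeq on GRCm38.p6 supplied promoters, and no coordinates were moved between builds.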

Additional observations from a re-analysis of the deposited data

Results flagged for a closer look

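In libraries left out for few counts or genes, the 71 genes summed to 7613 CPM (7455 to 7773) over 11 RO-3306 libraries of 1162603 counts and to 1462 CPM (1337 to 1597) over 19 control libraries of 341166 counts. The value is listed because it lies above the control libraries in data that no comparison used. A single RO-3306 library, D4, held 58.7% of these counts and 1 control library, C4, held 42.3%.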

How the results depend on the processing

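Under 17 alternatives the lower count ran from 10 to 18, except 1 of the 3 genes left without fractional counts, and leaving out single cells gave 11 to 17. The share of all genes called lower moved too, from 6.80% (TMM) to 15.9% (without set C, 18 of 58 members), with 4.97% where no CPM minimum was set. The higher count of 2 became 4 with TMM factors, DESeq2 size factors or without set A, 5 without set C, 1 at a minimum of 50 CPM, with equal weight per cell, after thinning or against genes of like length, 0 without fractional counts, and 1 to 3 without single cells. The median of -0.33 came to -0.11 (TMM), -0.10 (DESeq2), -0.27 (equal weight), -0.36 (without set D), -0.13 (like length) and -1.01 (without fractional counts). The summed level, -0.23, came to -0.0161 (TMM), 0.00074 (DESeq2, a reversed sign), -0.21 (totals without mitochondrial genes), -0.26 (equal weight), -0.25 (thinned), -0.28, -0.21 and -0.23 (without sets B, C and D), -1.10 (without fractional counts) and -0.25 to -0.22 (single cells). The scaling shift is near the size of the summed change, and the cause of other moves was not tested. Of 417 values of 26 of the genes under these alternatives, 211 stayed within counting error and 206 moved. The 211 include all values with no CPM minimum or with 50 CPM. These settings cannot change a gene's own ratio, so the 211 are no measure of stability. No called gene among the 26 changed sign. Eif1ax, a lower gene outside them, turned to 0.10 against genes of like length. Leaving out 1 cell moved 6 of 59 measured genes by over 1.5 times, and 5 of 15 calls (Eif4g1, Eif4h, Eif3a, Eif4g2 and Eif4ebp1) held whichever cell was left out. With 1 sample a treatment, depth limits only counting error, and cells of 1 group are not replicates.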
